A study of Mus musculus with 6 samples.

Results

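The mir-130 and mir-301 family was examined through 4 of the 1006 entries of the deposited small RNA table, those named mir-130a, mir-130b, mir-301a and mir-301b. They were chosen by name and by the seed that their 3p forms share. All 4 were found in the table. They were followed over 6 libraries of 4 conditions. Primary mouse osteoblasts (OB) and primary mouse bone marrow cells (BM) had 1 library each. Extracellular vesicles (EVs) collected from the medium of C2C12 cells, a mouse myoblast line, had 2 libraries without shear (Myo-EV) and 2 from cells under fluid flow shear stress (FFSS-Myo-EV). The sample labels give a mixed background of 81.25% C57BL/6J and 18.75% 129/SvJ for all 6 libraries, those of the cell line included. They give an age of 8 to 10 weeks for both cell preparations, whereas the study's methods describe osteoblasts grown from pooled calvariae of newborn males and bone marrow cells from a single adult male. For shear, the methods describe an orbital shaker and 48 hr of culture. The growth protocol in the labels is worded alike for all 6 libraries and speaks of vitamin D or dexamethasone, and FFSS is named in the titles and in the stress field.

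A microRNA (miRNA) is cut from a hairpin precursor as a short strand, either from its 5′ arm (5p) or from its 3′ arm (3p). It then guides repression of messenger RNAs that pair with its seed, which is bases 2 to 8. miRNAs that share a seed can act on an overlapping set of messages. The mir-130 and mir-301 family is known for acting on PPAR-gamma, the nuclear receptor that drives fat cell formation at the expense of bone formation, and on receptors of the TGF-beta pathway, which controls osteoblasts, osteoclasts and muscle cells.

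The mature sequences were taken from RefSeq on GRCm38.p6 and are shown because the seed defines the family. They are written 5′ to 3′ with the seed in capitals.
mmu-miR-130a-3p: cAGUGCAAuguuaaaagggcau
mmu-miR-130b-3p: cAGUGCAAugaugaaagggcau
mmu-miR-301a-3p: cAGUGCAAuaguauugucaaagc
For mir-301b, the hairpin is printed, with the same 7 bases in capitals.
Mir301b hairpin: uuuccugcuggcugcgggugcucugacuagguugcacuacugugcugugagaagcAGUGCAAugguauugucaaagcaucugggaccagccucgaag
Positions are counted from 1 at the 5′ end of the first sequence named. Over 22 bases, miR-130a-3p and miR-130b-3p differed at 2 positions, U11A and A13G. Over the 23 bases of miR-301a-3p, the seed-bearing stretch of the Mir301b hairpin differed at 1 position, A10G. The forms miR-130a-3p and miR-301a-3p shared their first 9 bases and differed at 10 positions. No hairpin of the family shared a stretch of 18 bases with any of 1004 other hairpins. The number of mismatches that the authors allowed is not given in the sources used here, so whether reads of mir-301a and mir-301b, or of mir-130a and mir-130b, were kept apart at these positions was not tested.

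The 5p forms carry other seeds, and they are shown because an entry of the table does not list the 5p and 3p forms apart.
mmu-miR-130a-5p: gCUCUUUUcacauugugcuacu
mmu-miR-130b-5p: aCUCUUUCccuguugcacuacu
mmu-miR-301a-5p: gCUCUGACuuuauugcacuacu
mmu-miR-301b-5p: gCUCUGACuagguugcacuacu
A level below is therefore that of a precursor entry, and the part of it that carries the family seed is not known from the table.

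The 4 precursors lie at 3 places in the genome. Mir130a lies on the minus strand of chromosome 2 of GRCm38 from 84741115 to 84741178, outside any other gene annotated in GENCODE M21. Mir301, the RefSeq symbol for mir-301a, lies on the plus strand of chromosome 11 from 87113004 to 87113089 in an intron of Ska2, a gene for a kinetochore protein. Mir301b, from 17124400 to 17124496, and Mir130b, from 17124061 to 17124142, lie on the minus strand of chromosome 16 with 257 bases between them, both in an intron of 2610318N02Rik. The submitters' notes name mm10, the same assembly under another name.

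The sequence TTGCACT pairs with the seed. It was searched on the transcript strand in the longest annotated 3′ UTR of each protein-coding gene in GENCODE M21, and 2096 of 20984 genes, or 10.0%, held it. Genes of both pathways were looked up, and the matches are shown with 8 bases on either side and the match in capitals.
Pparg: tctattgaTTGCACTattatttt
Tgfbr2: aataacgtTTGCACTttattaat
Acvr1, first match: actcttcgTTGCACTaggaattc
Acvr1, second match: ttccttacTTGCACTgtggccct
Pparg encodes PPAR-gamma, Tgfbr2 the type II TGF-beta receptor, and Acvr1 a type I receptor for bone morphogenetic proteins. The match in Pparg begins at base 42 of a 3′ UTR of 204 bases and that in Tgfbr2 at base 296 of 6085. Those in Acvr1 begin at bases 424 and 453 of 1105. The median 3′ UTR of all genes searched had 961 bases, and the share of 10.0% was not adjusted for length. The 3′ UTR of Tgfbr1, the type I TGF-beta receptor, had 4154 bases and 0 matches. Such a match describes the letters only, and no messenger RNA was measured in these libraries.

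The family was a small part of each library. The 4 entries together took from 0.0127% to 0.0182% of a library's counts, with totals of 2414132 to 6092460 counts per library. The counts of the family were 945 in OB, 961 in BM, 505 and 371 in vesicles without FFSS, and 403 and 336 with FFSS. Single members ranged from 7 counts for mir-301b in OB to 702 counts for mir-130b in BM. Levels are given as the authors' normalized expression value, which is the count multiplied by 1 constant per library. It is not divided by length, and the mature 3p forms are 22 to 23 bases long. Intervals are 95% exact Clopper-Pearson intervals. They hold the error of counting alone, since the sources used here name no molecular identifiers, without which PCR copies of 1 molecule are counted apart. OB and BM have no replicate error, and no test between them or against them was made. In such bulk samples, fewer cells of a type and less RNA per cell cannot be told apart.

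The labelled sources were checked with marker miRNAs. The 5 blood lineage miRNAs, such as mir-223 and mir-142a, took 0.841% of the counts in BM and at most 0.00614% in any other library. The 6 muscle miRNAs took 0.0712% to 0.0893% in the EV libraries, 0.00415% in OB and 0.00297% in BM. Most of this in vesicles was mir-206, with a mean normalized value of 2167 in Myo-EVs and 2607 in FFSS-Myo-EVs. The entries mir-133a-1 and mir-133a-2 were low, with means of 19.15 and 18.75 in Myo-EVs and of 7.2 and 5.2 in FFSS-Myo-EVs. The 6 mesenchymal miRNAs, such as mir-199a and mir-143, took 17.8% in OB and 1.51% in BM, and also 13.4% to 17.1% in the EV libraries. Their sum thus did not set OB apart from the vesicles. Most of it in vesicles was mir-143, with a mean of 323516 in Myo-EVs and 319586 in FFSS-Myo-EVs. Single mesenchymal miRNAs were not compared between OB and the vesicles.

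The member mir-130a is known for acting in blood vessel and blood cell development. It was highest in osteoblasts and lowest in bone marrow cells. Its normalized expression value was 180.6 in OB (95% interval 161.5 to 201.3) and 19.9 in BM (14.7 to 26.2, 50 counts). Vesicles had 93.4 and 80.2 without FFSS and 88.7 and 68.7 with FFSS. The vesicles thus lay between the cells, and the 2 EV groups overlapped. BM was 0.110 times OB (95% counting interval 0.0800 to 0.148). The Myo-EV mean of 86.8 ± 9.3 (SD, n = 2) was 0.481 times OB and 4.37 times BM.

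The member mir-130b was the highest of the family in BM and in all 4 EV libraries, and unlike mir-130a it was higher in BM than in OB. Its value was 278.8 in BM (258.6 to 300.2) and 169.0 in OB (150.6 to 189.0). Without FFSS the vesicle libraries had 242.9 and 245.5, and with FFSS 195.3 and 189.4. By value, BM stood first, Myo-EVs second, and FFSS-Myo-EVs and OB last. The counting interval of BM overlapped those of both Myo-EV libraries, 213.3 to 275.5 and 213.1 to 281.5. BM was 1.65 times OB (counting interval 1.44 to 1.89), and the Myo-EV mean was 0.876 times BM and 1.45 times OB. The order of FFSS-Myo-EVs and OB was not firm, since the mean of FFSS-Myo-EVs was 1.14 times OB on this scale and 0.924 times OB when the 6 libraries were scaled by median-of-ratios factors.

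The member mir-301a, from the intron of Ska2, followed the order of mir-130a with a smaller range. Its value was 168.4 in OB (150.1 to 188.4) and 69.9 in BM (60.0 to 81.0). In vesicles it was 144.6 and 95.8 without FFSS and 89.7 and 97.5 with FFSS. The first Myo-EV library stood above the other EV libraries, and its counting interval of 121.9 to 170.2 did not reach that of the second, 76.0 to 119.3. That of the first overlapped the interval of OB, and that of the second overlapped the interval of BM. The intervals of both FFSS-Myo-EV libraries, 72.1 to 110.2 and 78.2 to 120.1, overlapped that of BM as well. BM was 0.415 times OB (counting interval 0.343 to 0.501).

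The member mir-301b was the lowest of the family in each of the 6 libraries. Its value was 3.9 in OB (1.55 to 7.96, 7 counts) and 13.1 in BM (9.02 to 18.4, 33 counts). The vesicle libraries had 26.1 and 22.8 without FFSS and 27.9 and 16.6 with FFSS. It was the only member with a higher value in each EV library than in both OB and BM, although the intervals of 3 of the 4 EV libraries overlapped that of BM. The interval of the first FFSS-Myo-EV library, 18.5 to 40.3, lay above it. The Myo-EV mean of 24.5 ± 2.3 (SD, n = 2) was 6.32 times OB and 1.86 times BM.

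**Figure D1:**
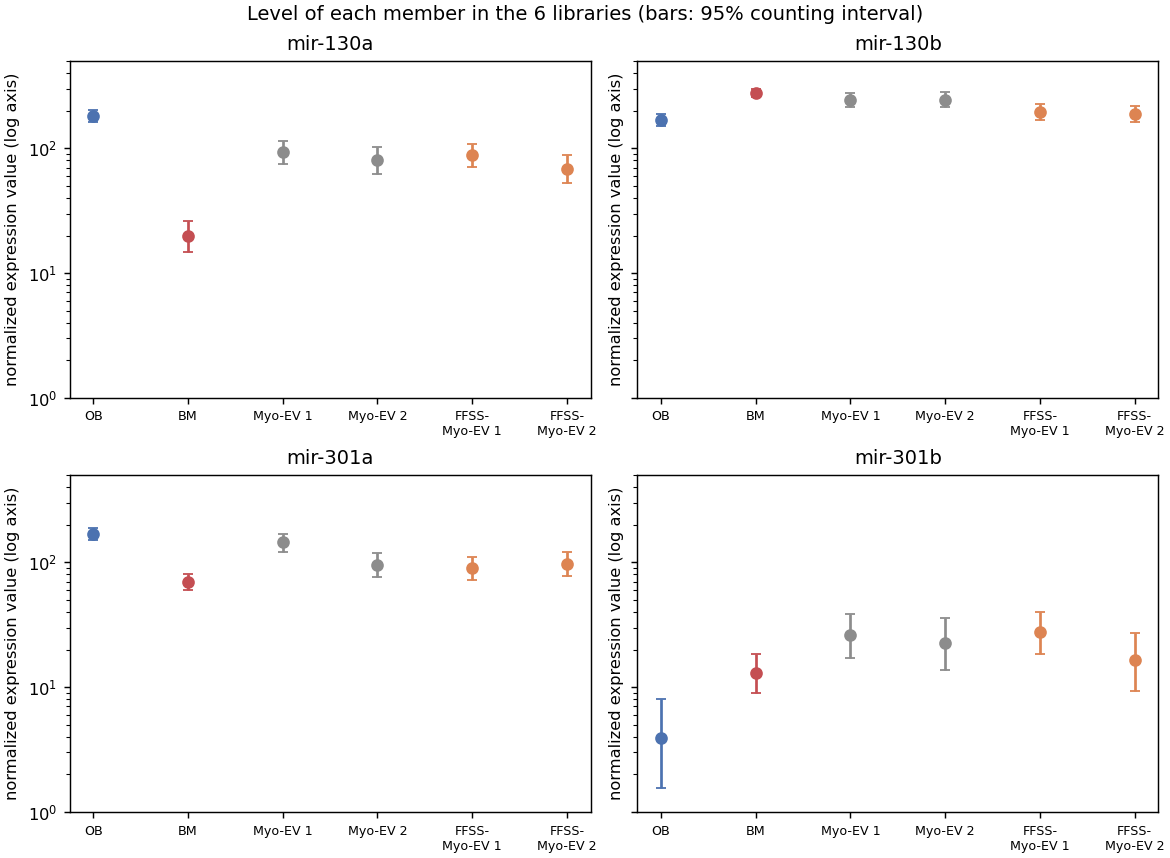
Normalized expression value (log axis) of mir-130a, mir-130b, mir-301a and mir-301b in the OB, BM, Myo-EV and FFSS-Myo-EV libraries, 1 point per library with its 95% counting interval. OB is highest for mir-130a and mir-301a, BM is highest for mir-130b, and OB is lowest for mir-301b at 3.9.

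The sum of the 4 members varied less than the members did. It was 521.9 in OB and 381.7 in BM, a ratio of BM to OB of 0.731 (counting interval 0.668 to 0.801). Vesicles had a sum of 507.0 and 444.3 without FFSS and of 401.6 and 372.2 with FFSS. The mean of FFSS-Myo-EVs was 1.01 times BM on this scale and 0.823 times BM after scaling to library totals, so their order was not firm.

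The make-up of the family differed between the cells, and a share within a library does not depend on how libraries are scaled to each other. In OB, mir-130a, mir-130b and mir-301a held similar shares of the family's counts, 34.6%, 32.4% and 32.3%, and their intervals overlapped. In BM, mir-130b held 73.0% (95% interval 70.1 to 75.8), mir-301a 18.3% and mir-130a 5.20% (3.89 to 6.80). In the EV libraries, mir-130b held 47.9% and 55.3% without FFSS and 48.6% and 50.9% with FFSS, which lies between OB and BM. The share of mir-130a was 18.4% and 18.1% without FFSS against 22.1% and 18.5% with FFSS. For mir-301a, it was 28.5% and 21.6% without FFSS against 22.3% and 26.2% with FFSS. The share of mir-301b was 0.741% in OB, 3.43% in BM and from 4.46% to 6.95% in the EV libraries. For each of mir-130b and mir-301a, 1 EV group lay wholly within the range of the other. For mir-130a both FFSS-Myo-EV libraries stood above both Myo-EV libraries, by less than the counting intervals of 14.3 to 22.4 and 14.5 to 23.0 in the second library of either group.

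**Figure D2:**
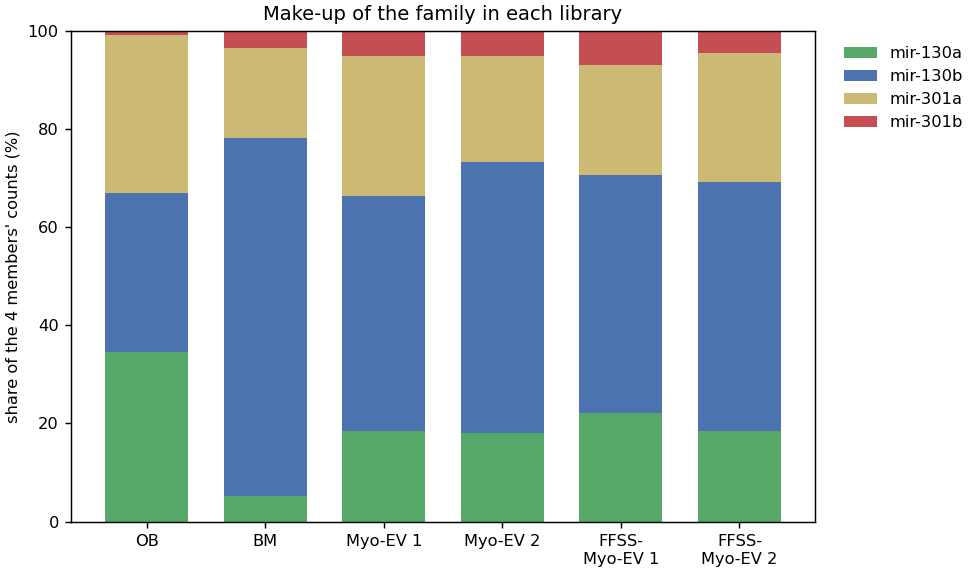
Share of the family's counts (%) taken by each of the 4 members in each library, as stacked bars that sum to 100%. The bar of BM is mostly mir-130b (73.0%), and the bar of OB is split nearly evenly between mir-130a, mir-130b and mir-301a. The EV shares of mir-130a, mir-130b and mir-301a lie between those of OB and BM. For mir-301b they lie above both, at 4.46% to 6.95%. Shares are about equal in both EV groups.

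The neighbours mir-130b and mir-301b were compared as a ratio of counts within each library. This ratio was 43.7 in OB (95% counting interval 21.0 to 109.7) and 21.3 in BM (15.0 to 31.2). In vesicles it was 9.31 and 10.8 without FFSS and 7.0 and 11.4 with FFSS. Each EV library had a lower ratio than either cell type. The counting intervals of the first library of either EV group, which ended at 14.5 and 10.8, stayed below that of BM, whereas those of the second libraries overlapped it. The ratio of mir-130b to mir-130a, which lie on different chromosomes, was 0.936 in OB (0.798 to 1.10), 14.0 in BM (10.5 to 19.1), and in vesicles 2.60 and 3.06 without FFSS and 2.20 and 2.76 with FFSS. Here the intervals of OB, BM and the EV libraries were separate. The ratio of mir-301a to mir-301b was 43.6 in OB and from 3.21 to 5.87 in BM and the EV libraries.

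**Figure D3:**
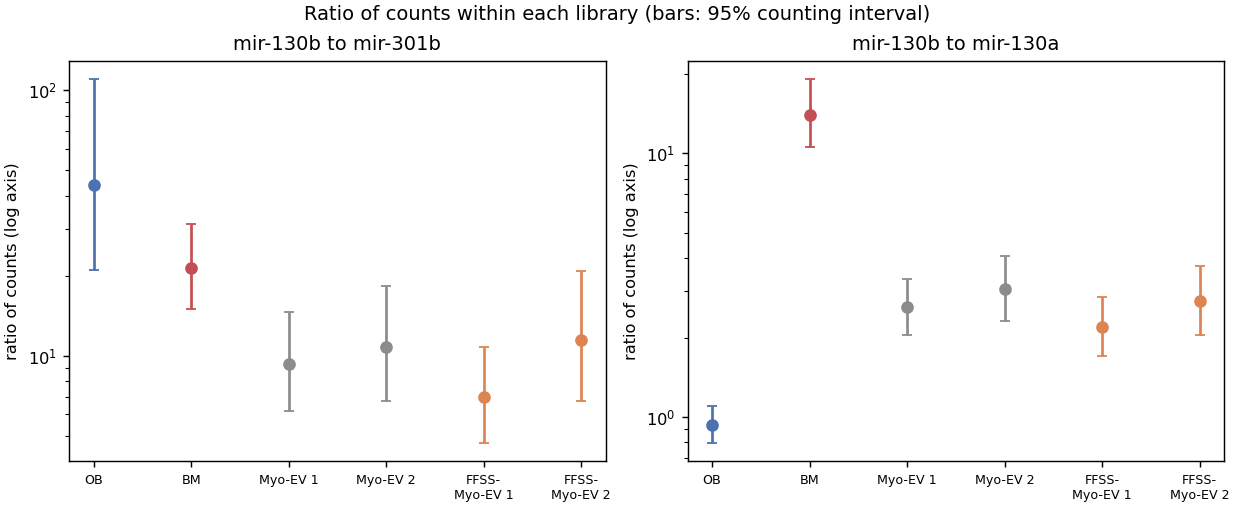
Ratio of counts within each library (log axis) of mir-130b to its neighbour mir-301b, left, and of mir-130b to mir-130a, right, with 95% counting intervals. On the left, OB is highest at 43.7 and the 4 EV libraries are lowest. On the right, BM is highest at 14.0 and OB lowest at 0.936.

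Whether FFSS changed the family in the vesicles was tested on counts with edgeR, by its quasi-likelihood test with TMM factors, across the 354 entries whose value averaged 10 or more over the 4 EV libraries. All 4 members passed this filter. All 4 had a lower mean in FFSS-Myo-EVs, and none passed an adjusted p of 0.05. By that rule 0 of 4 members were called, against 30.5% of all entries tested, with 12.1% called higher and 18.4% called lower. DESeq2 and limma with a trend called 0 of 4 as well. In edgeR, 1 of 4 members, mir-130b, had an unadjusted p under 0.05, against 138 of all 354 entries tested. The log2 fold change was negative for 52.3% of all entries, with a median of -0.02, and the median over the 4 members was -0.37. The smallest two-sided p that an exact permutation test allows for 1 entry is 0.333 with 2 libraries against 2. No source says that the libraries of a group came from separate cultures, so the p-values measure only the spread between these libraries.

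The mean value of mir-130b was 244.2 ± 1.8 (SD, n = 2) in Myo-EVs and 192.4 ± 4.2 (SD, n = 2) in FFSS-Myo-EVs, and the difference did not pass the test. Both FFSS-Myo-EV libraries were below both Myo-EV libraries. The counting intervals of single libraries were wider than these SDs. They were 213.3 to 275.5 and 213.1 to 281.5 without FFSS, and 168.9 to 224.6 and 162.1 to 220.0 with FFSS. The intervals of the 2 groups thus overlapped. The fitted log2 difference of mir-130b was -0.47 (SE, the standard error, 0.20, 95% interval -0.85 to -0.08, adjusted p = 0.0561 by edgeR's quasi-likelihood fit). Without a filter on low values, its adjusted p in the same test was 0.0422. Over its 12 alternative analyses, the adjusted p ranged from that value to 0.579, and the log2 fold change stayed between -0.56 and -0.34.

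For mir-301a, the mean was 120.2 ± 34.5 (SD, n = 2) in Myo-EVs and 93.6 ± 5.5 (SD, n = 2) in FFSS-Myo-EVs. The groups overlapped on the authors' scaling and were separate on TMM-scaled values. Its log2 fold change was -0.50 (SE 0.26, 95% interval -1.02 to 0.01, adjusted p = 0.135 by edgeR's quasi-likelihood fit). The size of this change rested on the Myo-EV libraries, since it was -0.73 without the second one (adjusted p = 0.0381) and -0.17 without the first (adjusted p = 0.622) in the same edgeR test.

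The other members had smaller log2 fold changes, and neither passed the test. For mir-130a the means were 86.8 and 78.7, with a log2 fold change of -0.26 (95% interval -0.83 to 0.30, adjusted p = 0.558 in edgeR). For mir-301b the means were 24.5 and 22.3, with a log2 fold change of -0.25 (95% interval -1.01 to 0.52, adjusted p = 0.714 in edgeR). The latter was 0.14 without the second FFSS-Myo-EV library. The groups did not overlap for 1 of 4 members on the authors' scaling and for 2 of 4 on TMM-scaled values, both times with FFSS-Myo-EVs lower, against 23.7% and 32.5% of all entries. Compared with TMM, the authors' scaling raised log2 fold changes by 0.12. With it, 54 entries were called higher and 39 lower, against 43 and 65 with TMM, and the log2 fold change of mir-130b was -0.34. The summed value of the blood lineage miRNAs was 15.0 and 10.8 without FFSS against 50.9 and 43.2 with FFSS, with 2 of the 5 at 0 in the second Myo-EV library, and its part in these results was not tested.

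**Figure D4:**
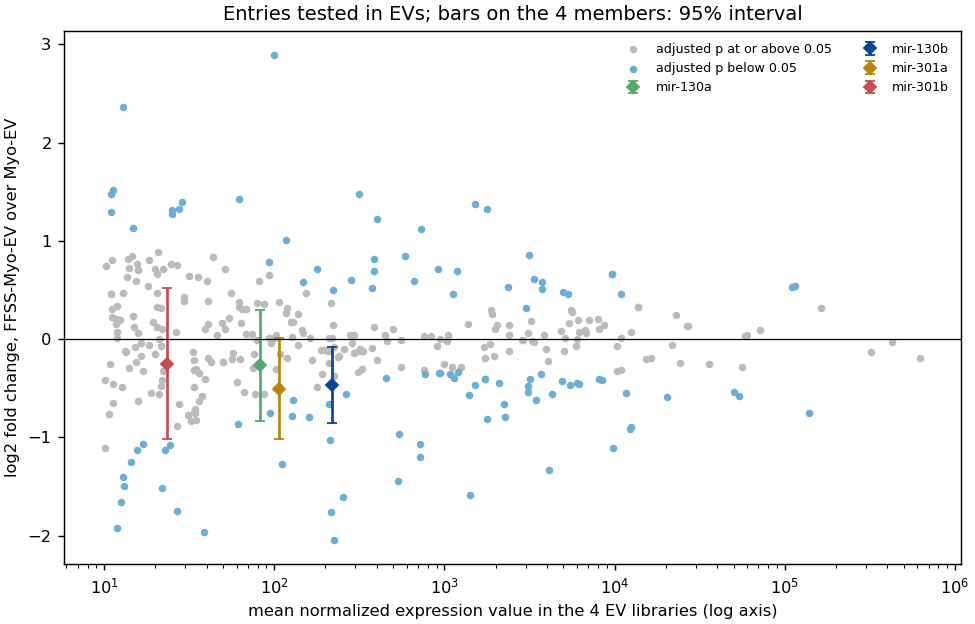
Log2 fold change of FFSS-Myo-EVs over Myo-EVs against the mean normalized expression value in the 4 EV libraries (log axis) for the 354 entries tested, with the 4 members as diamonds with 95% intervals. All 4 diamonds lie below 0, the intervals of mir-130a, mir-301a and mir-301b include 0, and that of mir-130b ends at -0.08.

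Other mouse miRNAs have the same seed. The RefSeq sequences used here hold 7 mature forms with it among 1738. They include no 3p form of mir-301b, whose hairpin carries the seed. The 7 are the 3 given above and 4 more, which are shown because their 3′ parts tell them apart from the family.
mmu-miR-130c: cAGUGCAAuguuccaaggugug
mmu-miR-721: cAGUGCAAuuaaaagggggaa
mmu-miR-6341: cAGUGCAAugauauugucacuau
mmu-miR-6389: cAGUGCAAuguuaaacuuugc
The entry mir-130c had at most 4 counts in any library, mir-6341 had 1 count in all 6 libraries together and mir-6389 had 0 counts, which allows up to 3 counts per library as a one-sided limit. None of these entries reached the level for testing, and mir-721 has no entry in the deposited small RNA table. Nearly all counts of entries with this seed were thus those of the 4 members.

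A seed that shares 6 bases in a row with that of the family was found in 7 further entries of the table, all of them tested. Of these, 1 was called higher in FFSS-Myo-EVs and 0 lower, against 12.1% higher and 18.4% lower of all entries tested. Their median log2 fold change was 0.22. The 3 with the highest mean in the EV libraries were mir-152, mir-148b and mir-148a, which share a seed of their own. The entry that passed was mir-148a, with 60.2 and 86.2 without FFSS against 146.4 and 173.9 with FFSS, and a log2 fold change of 1.01 (SE 0.26, adjusted p = 0.000838 by edgeR's quasi-likelihood fit). Both cell preparations held far more of mir-148a, 202100 in OB and 44559 in BM, and the part of this in its call was not tested. For mir-152 the log2 fold change was 0.20 (adjusted p = 0.309) and for mir-148b it was 0.15 (adjusted p = 0.434), both from edgeR.

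A list of 17 entries of miRNAs linked to the TGF-beta pathway or PPAR-gamma, without the family, was described beside it. It holds mir-17 and mir-20a, which act on Tgfbr2, mir-27a and mir-27b, which act on Pparg, and mir-21a, which acts on the inhibitor Smad7. Of the 15 entries tested, mir-148a was called higher and mir-106b lower, and 13 were not called. Over all entries tested, 12.1% were called higher and 18.4% lower. The median log2 fold change was 0.10. The value of mir-106b was 1424.4 and 1947.4 without FFSS against 1298.1 and 1349.0 with FFSS. Its log2 fold change of -0.46 (SE 0.13, adjusted p = 0.00173 by edgeR's quasi-likelihood fit) was of the same size as that of mir-130b, at a level with a smaller standard error. For mir-27b, the log2 fold change was 0.24 (adjusted p = 0.286 in edgeR), and for mir-21a it was -0.19 (adjusted p = 0.709).

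The profiles of the members over the 6 libraries were set against those of the 246 entries whose value averaged 100 or more. Likeness was the root mean square difference of log2 values after each profile was centred on its own mean, so it compares shapes and not levels. The 6 libraries come from 4 conditions, and the 4 EV libraries share their cell line. The closest entry to any member was mir-484, which differed from mir-130b by 0.036 on the log2 scale (Pearson r 0.99 over 6 libraries). Its values were 1616.4 in OB, 2729.8 in BM, and in vesicles 2235.5 and 2398.9 without FFSS and 1838.0 and 1869.5 with FFSS. It thus stood higher than mir-130b throughout, with nearly the same ratios between libraries.

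The 3 entries closest to mir-130a were mir-542 (0.27), mir-503 (0.28) and mir-450b (0.37), which belong to 1 cluster of miRNAs on the X chromosome. Like mir-130a, mir-503 was highest in OB, with 1195.6, and lowest in BM, with 181.1. The closest to mir-301b were mir-92a-1 (0.31), mir-30c-2 (0.35) and mir-20a (0.36). All of these were lowest in OB, as mir-301b was, and mir-92a-1 and mir-20a belong to the mir-17-92 cluster. For mir-301a the closest were mir-34a (0.36), mir-331 (0.37) and mir-450b (0.39). The members differed from each other by 0.60, between mir-130b and mir-301a, to 1.44, between mir-130a and mir-301b. The closest entries were picked as the smallest differences among 246, whereas the pairs of members were fixed, so the 2 kinds of difference are not comparable. The neighbours mir-130b and mir-301b differed by 0.79.

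**Figure D5:**
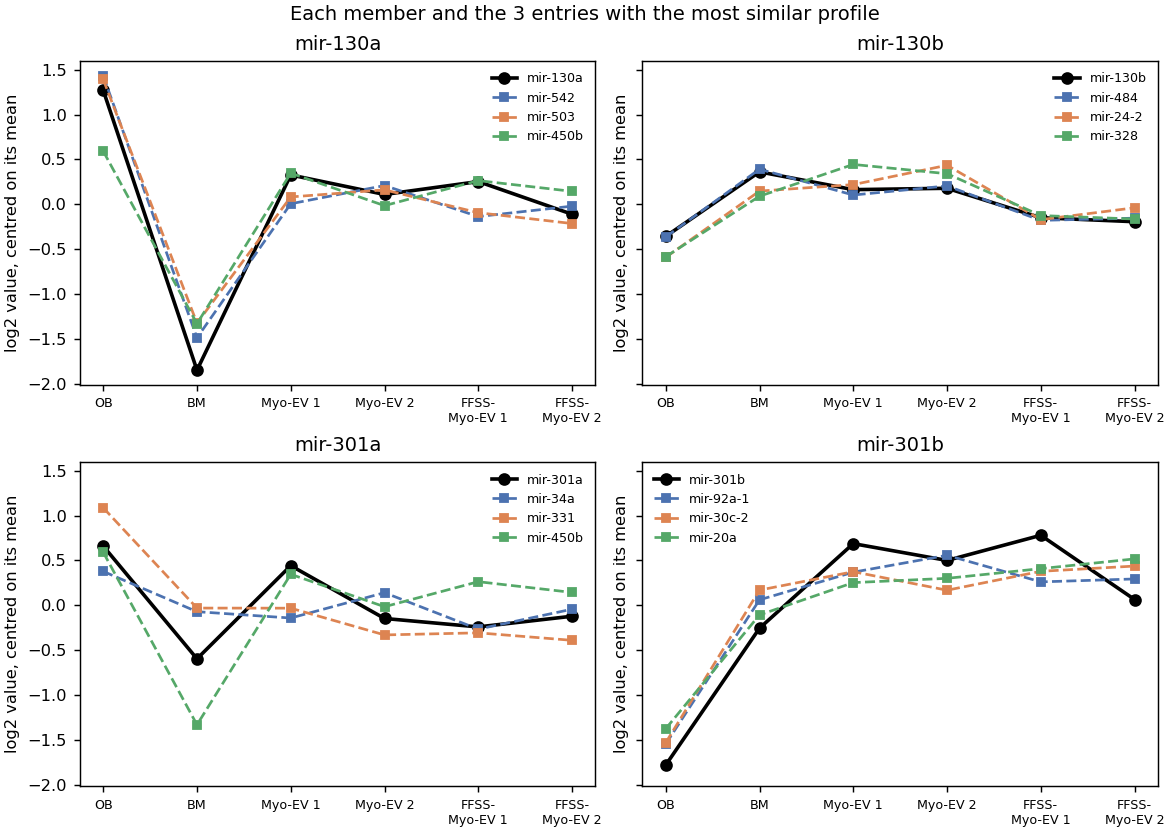
Log2 normalized expression value (with 1 added), centred on its mean over the 6 libraries, for each member (black) and the 3 entries with the most similar profile (colours). The line of mir-484 lies on that of mir-130b (difference 0.036), and mir-542, mir-503 and mir-450b are lower in BM than in OB, as mir-130a is.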

How the data were processed

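Per the file headers, each entry has, per library, a count and a normalized expression value. The authors grouped the reads by sequence in CLC Genomics Workbench and matched the groups to miRBase. The deposited counts are whole numbers without normalization. The normalized expression value is a signal that the authors made by scaling each library. It equals the count times 1 constant per library, from 0.397 for BM to 1.20 for the second Myo-EV library. The miRBase release, and how a read matching more than 1 precursor was counted, are not given in the sources used here. The members and the lists were chosen with earlier results of these data known.

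Counts of the 4 EV libraries were tested with edgeR 4.0.16 in R 4.3.3 (TMM, library totals over all entries, quasi-likelihood test, Benjamini-Hochberg adjustment over 354 entries, threshold 0.05). The test was checked on simulated counts. DESeq2 1.42.0 and limma 3.58.1, the latter on log2 values with a pseudocount of 1, were alternatives. Python 3.11.15 with scipy 1.17.1 gave the intervals. Replicates differed by more than counting noise, with a chi-square per degree of freedom of 93.3 for Myo-EVs and 15.9 for FFSS-Myo-EVs. Sequences are from RefSeq (GRCm38.p6) and GENCODE M21. The entries named are the members, those that share the seed or 6 bases of it, the called entries and examples of the lists, and the 3 entries most like each member.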

Additional observations from a re-analysis of the deposited data

How the results depend on the processing

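The log2 fold changes of mir-130a, mir-130b and mir-301a stayed negative in each alternative analysis, and that of mir-301b in 10 of 11. Single libraries left out in turn gave -0.53 to -0.02 for mir-130a, -0.56 to -0.36 for mir-130b, -0.73 to -0.17 for mir-301a and -0.75 to 0.14 for mir-301b, and the call of mir-301a without the second Myo-EV library was the only one among them. Without a filter on low values mir-130b was called, with a log2 fold change of -0.52. With the replicate block it was -0.47 for mir-130b and -0.48 for mir-301a, no member was called, and 44 entries were higher and 66 lower. No source pairs the libraries by number, and the deviations of libraries of the same number had a correlation of 0.21 over 354 entries. Of all entries, 43 were higher and 65 lower, against 54 and 39 with the authors' scaling and 57 and 37 with limma and a trend. With single libraries left out, 15 to 51 were higher and 18 to 75 lower. The lowest counts came without the first FFSS-Myo-EV library for the higher entries (15, with 25 lower) and without the second for the lower ones (18, with 19 higher), where the remaining library of a group is assumed to vary like the other group.

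The ratios between conditions moved with the scaling. After scaling to library totals, the ratio of Myo-EVs to BM was 3.66 for mir-130a, 0.734 for mir-130b, 1.56 for mir-301b and 1.04 for the sum, that of BM to OB was 1.95 for mir-130b and 0.865 for the sum, and mir-130b was 1.43 times OB in Myo-EVs and 1.09 times in FFSS-Myo-EVs. After median-of-ratios scaling, the ratio of Myo-EVs to OB was 0.427 for mir-130a, 1.28 for mir-130b, 5.61 for mir-301b and 0.810 for the sum, that of BM to OB was 1.43 for mir-130b and 0.632 for the sum, and mir-130b in Myo-EVs was 0.901 times BM. For FFSS-Myo-EVs, mir-130b was 0.924 times OB, and the sum was 0.953 times BM, against 0.823 after scaling to library totals. Over every entry with the seed, mir-301b held 5.10% in Myo-EVs. Of the 12 pairs of a member and an entry most like it, 4 remained with a Pearson correlation, mir-484 for mir-130b among them. With a mean of at least 1000, 7 remained. That number follows from the limit, since an entry above it keeps its place when other entries are only removed. The counts of mir-301b, 7 to 33 per library, limit the precision of its values.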
